A study of Mus musculus with 8 samples.

Results

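Calcium entry and triad structure in GAS muscle were followed through 10 genes picked by name, each of which had 1 of the 22206 probe sets of the array. They fell into the machinery of store-operated calcium entry (Stim1, Stim2, Orai1, Orai2 and Orai3) and proteins of the triad (Jph1, Jph2, Jsrp1, Tmem38a and Sypl2). MYTHO is the product of D230025D16Rik. An AAV with a sh-RNA against it under the U6 promoter was injected into the GAS of male C57/Bl6j mice aged about 10 weeks (AAV sh-RNA MYTHO, here MYTHO-KD), and an AAV with a scramble sh-RNA went into the other leg (AAV sh-RNA scrmb, here scramble). Muscles were taken 12 weeks later at 22 weeks of age, and the RNA of 4 MYTHO-KD and 4 scramble muscles was read on Clariom S Mouse arrays. U6 is active in all cell types, so the promoter itself did not limit the sh-RNA to fibres. Each value below is an average of 4 arrays with its SD, because the table analysed holds no value of a single array. Whether single arrays of the groups overlapped therefore cannot be read from it.

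The triad is the place where a transverse tubule, an inward fold of the fibre membrane, lies between terminal cisternae of the sarcoplasmic reticulum. Excitation of the tubule opens ryanodine receptors in the facing reticulum, and the calcium released starts contraction. When the reticulum runs low in calcium, STIM proteins in its membrane bind ORAI channels in the cell membrane, and calcium enters from outside: this is store-operated entry. In skeletal muscle both events involve the reticulum and the transverse tubule. Gain-of-function changes of STIM1 and ORAI1 are known causes of tubular aggregate myopathy, in which reticulum membranes pile up in fibres.

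None of the 10 genes passed a test between MYTHO-KD and scramble. With limma, 0 of 10 had an unadjusted p under 0.05, where 12.0% of all probe sets did (6.48% higher and 5.52% lower in MYTHO-KD). Once p-values were adjusted (Benjamini-Hochberg, across the whole table) 0 of 10 were called, against 0.275% of the table, and 0 of 10 differed 2-fold with an unadjusted p under 0.05, against 1.12%. A p that misses the threshold does not show that levels were equal, so the 95% interval of each difference is given. All 10 intervals lay inside a 2-fold change in either direction, as did 89.2% of all probe sets. Inside 1.5-fold lay 6 of 10, against 38.4% of all probe sets. The median difference of the 10 genes was 0.055 on the log2 scale, with 6 higher and 4 lower in MYTHO-KD, beside a median of -0.01 over the whole table. The median size of the difference, sign set aside, was 0.105 in the 10 genes and 0.18 in the table.

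The sh-RNA target was read first as a check of the labels. The log2 signal of D230025D16Rik was 7.71 ± 0.66 in MYTHO-KD and 10.02 ± 0.37 in scramble (SD, n = 4 each), which left 20.2% of the scramble level on the linear scale (log2 difference -2.31, 95% interval -2.97 to -1.65, limma adjusted p = 0.0138). The tissue label was checked against 10 muscle fibre markers, whose averages ran from 16.34 to 19.93 in MYTHO-KD. The top of the scale was 19.93. The 10 genes of entry and triad averaged 5.80 to 15.35, away from that top, and all 10 were flagged as expressed in both groups, as were 95.6% of all probe sets.

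STIM1 is the main calcium sensor of the reticulum, and STIM2 is a related sensor that responds to smaller losses of stored calcium. Stim1 (mm10, chr7:102267812-102436860, plus strand) had a log2 signal of 11.11 ± 0.27 in MYTHO-KD and 11.00 ± 0.43 in scramble (SD, n = 4 each). The difference of 0.11 ± 0.229 (SE) was smaller than either SD, with an interval from -0.39 to 0.61 and a limma adjusted p of 0.908. On the linear scale this interval ran from 0.763-fold to 1.53-fold. Stim2 (chr5:53998417-54121057, plus strand) had a log2 signal of 10.16 ± 0.28 in MYTHO-KD and 9.95 ± 0.16 in scramble. Its difference of 0.21 ± 0.182 (SE) lay between the SDs of the groups, the interval was -0.19 to 0.61, and it had the lowest p of the 10 genes (limma adjusted p = 0.718). Of all probe sets, 42.7% differed by more than Stim2 did.

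ORAI1 forms the pore of the entry channel, and ORAI2 and ORAI3 are its homologues. Orai1 (chr5:123015074-123030452, plus strand) had a log2 signal of 10.44 ± 0.06 in MYTHO-KD and 10.23 ± 0.57 in scramble. Its SDs were the furthest apart of the 10 genes: the MYTHO-KD arrays lay close together and the scramble arrays did not. The difference of 0.21 ± 0.248 (SE) had an interval from -0.33 to 0.75 (limma adjusted p = 0.809), the highest upper limit of the 10 genes at 1.68-fold. With a separate variance for each group the Orai1 interval widened to -0.69 to 1.11, past 2-fold. Orai2 (chr5:136147459-136170656, minus strand) had a log2 signal of 5.80 ± 0.21 in MYTHO-KD and 5.83 ± 0.50 in scramble, a difference of -0.03 (interval -0.55 to 0.49, limma adjusted p = 0.984). This was the smallest difference of the 10 genes, and the Orai2 averages lay just above the 30th percentile of mean signal over the array (5.715). Orai3 (chr7:127769815-127775150, plus strand) had a log2 signal of 8.42 ± 0.39 in MYTHO-KD and 8.24 ± 0.28 in scramble, and the difference of 0.18 had an interval from -0.30 to 0.66 (limma adjusted p = 0.820). Of the 5 entry genes 4 had a higher average in MYTHO-KD, with a median difference of 0.18, and each of these 4 intervals reached past 1.5-fold on the higher side. A rise of that size in them was therefore not resolved from no change by this unpaired test with 4 arrays a group.

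**Figure D1:**
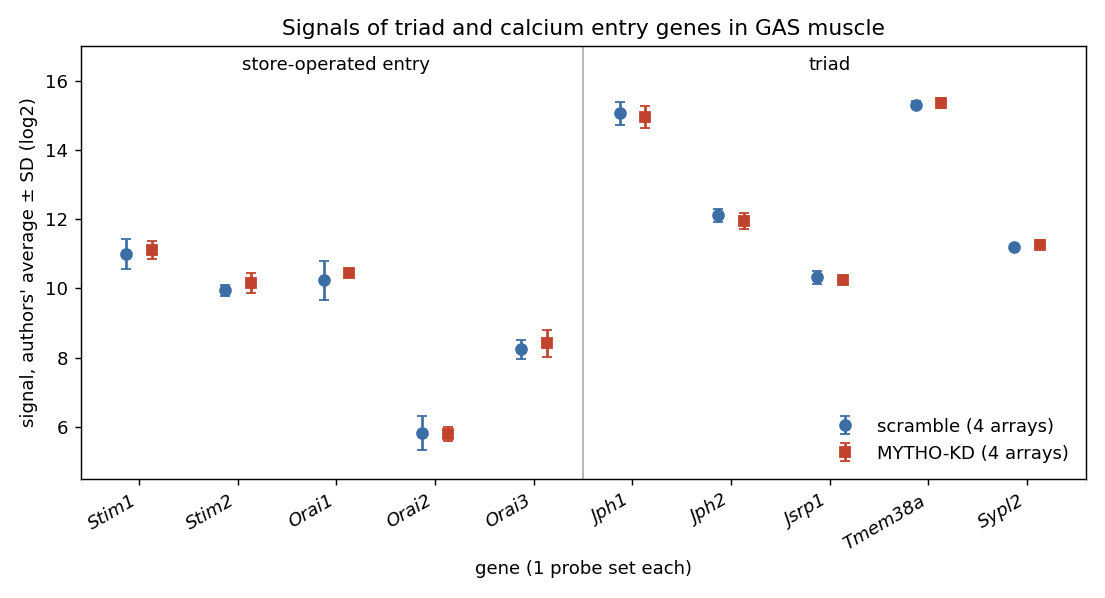
Group averages of the log2 signal (vertical axis) with the SD over 4 arrays as bars, for scramble (blue circles) and MYTHO-KD (red squares), with the 5 entry genes on the left and the 5 triad genes on the right. The averages of the groups lie within 0.21 of each other for every gene, and heights of different genes are not comparable because each has its own probes.

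Junctophilins hold the reticulum against the transverse tubule, with JPH1 and JPH2 as the forms of skeletal muscle. Jph1 (chr1:16994938-17097889, minus strand) had a log2 signal of 14.95 ± 0.31 in MYTHO-KD and 15.05 ± 0.32 in scramble, with a difference of -0.10 that was under either SD (interval -0.56 to 0.36, limma adjusted p = 0.910). Jph2 (chr2:163336242-163397993, minus strand) had a log2 signal of 11.95 ± 0.22 in MYTHO-KD and 12.11 ± 0.19 in scramble. Its difference of -0.16 ± 0.175 (SE) was the lowest of the 10 genes, and the interval from -0.54 to 0.22 allowed 0.687-fold to 1.17-fold (limma adjusted p = 0.788). Both junctophilins had lower averages in MYTHO-KD, by less than their spread between arrays.

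The other triad genes had the narrowest intervals. Jsrp1 encodes JP-45, a junctional reticulum protein that binds the voltage sensor and calsequestrin. Jsrp1 (chr10:80808496-80813498, minus strand) had a log2 signal of 10.24 ± 0.11 in MYTHO-KD and 10.32 ± 0.19 in scramble, a difference of -0.08 (interval -0.43 to 0.27, limma adjusted p = 0.903). Tmem38a encodes TRIC-A, a potassium channel of the reticulum that balances charge during calcium release. Tmem38a (chr8:72572090-72587284, plus strand) had a log2 signal of 15.35 ± 0.15 in MYTHO-KD and 15.30 ± 0.10 in scramble, a difference of 0.05 (interval -0.29 to 0.39, limma adjusted p = 0.947). Sypl2 encodes the triad protein MG29, a relative of synaptophysin. Sypl2 (chr3:108211472-108226648, minus strand) had a log2 signal of 11.26 ± 0.13 in MYTHO-KD and 11.20 ± 0.06 in scramble, a difference of 0.06 (interval -0.27 to 0.39, limma adjusted p = 0.929). For Tmem38a and Sypl2 the intervals allowed at most 1.31-fold higher, and 0.819-fold and 0.831-fold at the low end. All 5 triad genes lay inside 1.5-fold, with a median difference of -0.08, 2 higher and 3 lower. Among the 5 entry genes Orai2 alone did so. These memberships depend on the variance: without moderation or with unequal variances Jph1 (-0.65 to 0.45 in either) and Orai2 (-0.69 to 0.63 and -0.78 to 0.72) reached past 1.5-fold, and with trend and robust fitting Stim1 (-0.36 to 0.58) came inside. The entry genes had standard errors of 0.182 to 0.248 and the triad genes 0.150 to 0.212, so the intervals of the triad genes were mostly the narrower.

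**Figure D2:**
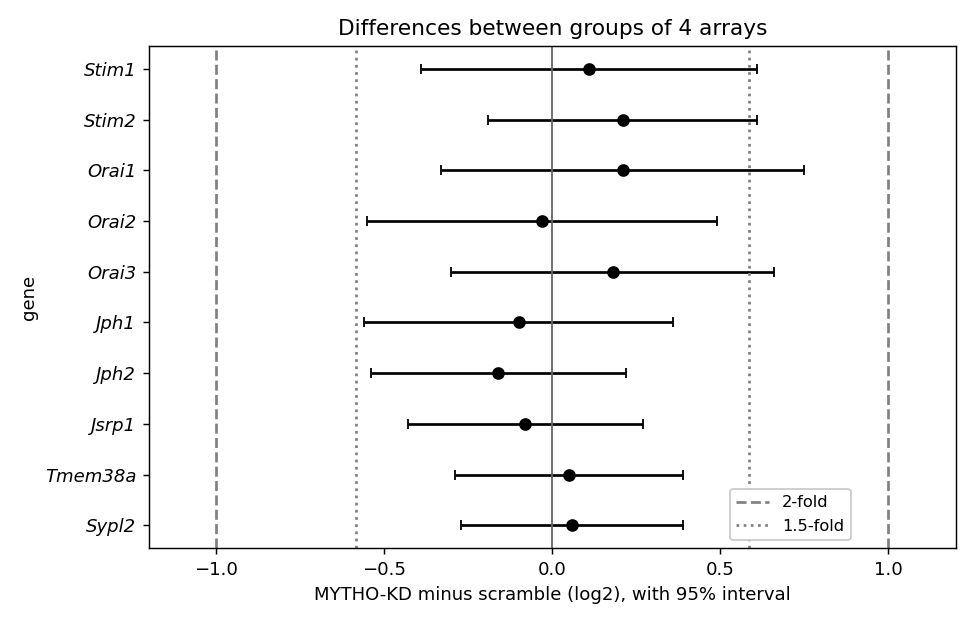
MYTHO-KD minus scramble on the log2 scale (horizontal axis) for each gene, with points for the difference and bars for the 95% interval from limma's moderated test; dotted lines mark 1.5-fold and dashed lines 2-fold. All 10 bars cross 0 and stay inside the dashed lines, and the bars of Stim1, Stim2, Orai1 and Orai3 pass the dotted line on the higher side.

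The letters upstream of the starts were compared as a feature that the choice of genes did not use. Promoter entries of RefSeq (GRCm38.p6, the same build as mm10) were found for 8 of the 10 genes; Jph1 and Jsrp1 had none in the table used. In the 250 bases before the start of each promoter entry, CG dinucleotides numbered 31 for Stim1, 30 for Stim2, 30 for Orai1, 17 for Orai2 and 7 for Orai3. Among triad genes they numbered 5 for Jph2, 5 for Tmem38a and 19 for Sypl2. The median over 32851 windows of the table was 6. The STIM genes and Orai1 thus had promoters rich in CG, of the kind common in widely used genes, and the windows read for Jph2 and Tmem38a were not rich in CG. For Jph2 only the first of 2 entries was read. The Tmem38a window (chr8:72571573-72571822) ended upstream of the gene start given above (72572090). The split did not follow entry and triad, since Orai3 was near the median and Sypl2 well above it. The E-box CAGCTG, read the same on both strands, was present in 3 of the 8 (Orai1, Jph2 and Sypl2) and in 13.0% of all windows. It is a form of the E-box that myogenic factors can bind, and a match is a description of the letters and not a bound site. The E-box of Jph2 ended 3 bases before the start. To show a CG-rich and a CG-poor promoter, the last 80 bases before the start are printed with CG in capitals for Stim1 (chr7:102267739-102267818, plus strand, 11 CG) and for Jph2 (chr2:163397994-163398073, minus strand, 1 CG, from the first of 2 Jph2 entries).
Stim1: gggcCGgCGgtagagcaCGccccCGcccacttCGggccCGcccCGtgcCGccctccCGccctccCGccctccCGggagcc
Jph2: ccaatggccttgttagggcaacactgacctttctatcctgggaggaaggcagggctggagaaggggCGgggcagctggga
Neither gene passed the test between the groups, so these letters go with no measured change.

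Genes that work beside these 10 were read from 6 lists of calcium handling, 71 further genes in all, every one of which had a probe set. Of the 71, 33 had a higher and 36 a lower average in MYTHO-KD and 2 were equal, with a median difference of -0.04. Of the equal pair, Atp2a1, the calcium pump of fast fibres, was at 19.93 with an SD of 0 in both groups, so its probe set was saturated and could show no difference (it was named after its values were seen). By unadjusted p under 0.05 there were 2 higher and 6 lower, close to the 12.0% of all probe sets in either direction, and 0 passed after adjustment. None of the values below is a call after adjustment, and none of the 71 reached 2-fold with an unadjusted p under 0.05.

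Among 6 relatives of the same gene families, 2 were higher and 4 lower (median difference -0.255), with 1 under an unadjusted p of 0.05 on each side. Tmem38b, which encodes TRIC-B, the more widely expressed sister of TRIC-A, had a log2 signal of 10.83 ± 0.29 in MYTHO-KD and 10.12 ± 0.44 in scramble (difference 0.71, interval 0.20 to 1.22, limma adjusted p = 0.249). Its interval and that of Tmem38a overlapped, and the difference between them was not tested. Jph3, a junctophilin of neurons, had averages of 4.45 ± 0.27 and 5.26 ± 0.30 and was the relative not flagged as expressed in both groups (difference -0.81, limma adjusted p = 0.133).

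Among 15 regulators of store-operated entry, TRPC channels, Homer scaffolds and IP3 receptors, 4 were higher and 11 lower, with a median of -0.07 and 1 of 15 under 0.05. That gene was Homer1, a scaffold that joins ryanodine and IP3 receptors with channels of the cell membrane, at 12.75 ± 0.09 in MYTHO-KD and 13.19 ± 0.02 in scramble (difference -0.44, limma adjusted p = 0.247). Homer2, next by p and not under 0.05, lay on the other side at 8.11 ± 0.36 and 7.47 ± 0.69 (difference 0.64, limma adjusted p = 0.443).

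Of 20 genes of excitation-contraction coupling and reticulum calcium, 9 were higher and 10 lower, and the remaining 1 was the saturated Atp2a1. The median difference was -0.10 with it and -0.20 without it. Of the 20, 2 had an unadjusted p under 0.05, both lower. Trdn encodes triadin, which anchors calsequestrin at the release channel, and measured 18.17 ± 0.09 in MYTHO-KD and 18.54 ± 0.14 in scramble (difference -0.37, limma adjusted p = 0.364). Ryr1, the release channel itself, measured 16.34 ± 0.25 and 16.73 ± 0.15 (difference -0.39, limma adjusted p = 0.408). Its unadjusted p passed 0.05 narrowly. Centring on all probe sets left a difference of -0.38, and centring on fibre markers one of -0.375, neither of which passed. The fibre markers used for centring include Ryr1 itself and the saturated Acta1 and Myh4. The triad genes that hold the membranes together, Jph1 and Jph2, had differences of -0.10 and -0.16 in the same muscles. Their intervals overlapped those of Trdn (-0.70 to -0.04) and Ryr1 (-0.77 to -0.01), and the differences between these genes were not tested.

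Of 11 genes of the transverse tubule and of reticulum anchoring, 9 had higher averages (median 0.19) and none of these 9 had an unadjusted p under 0.05. The 1 gene under 0.05 was Ank1, whose muscle form ties the reticulum to the myofibril, at 15.24 ± 0.24 against 15.65 ± 0.13 (difference -0.41, limma adjusted p = 0.370). Pacsin3, a membrane-bending protein of caveolae and next by p, had a difference of 0.32 (limma adjusted p = 0.486).

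Removal of calcium was read from 13 genes of extrusion and mitochondrial uptake, 6 higher and 7 lower, with a median of -0.17 and 1 under an unadjusted p of 0.05 on each side. Slc8a1, the sodium-calcium exchanger NCX1, measured 7.46 ± 0.20 in MYTHO-KD and 6.72 ± 0.41 in scramble (difference 0.74, limma adjusted p = 0.191). Micu3, a regulator of the mitochondrial uniporter, measured 9.05 ± 0.23 and 9.57 ± 0.38 (difference -0.52, limma adjusted p = 0.353). Of 8 other genes known from tubular aggregate disease, 3 were higher and 4 lower, with a median of -0.04. Besides Ryr1, which was 1 of the 8 and had an unadjusted p under 0.05, the lowest p was that of Casq1, the calcium store protein calsequestrin (18.71 ± 0.27 against 18.98 ± 0.06, difference -0.27, limma adjusted p = 0.587).

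Markers of some other cell types, but not of all, differed between the groups in the same RNA. In such bulk RNA, a change in the number of cells of a type and a change in RNA per cell cannot be told apart. Averages of all 10 macrophage markers were higher in MYTHO-KD (median difference 0.695), with linear signals summing to 4930 in MYTHO-KD and 2090 in scramble, and 2 passed after adjustment: Cd68, a lysosomal protein of phagocytes, by 2.53 (limma adjusted p = 0.0182), and Lyz2, lysozyme, by 1.94 (adjusted p = 0.0277). Averages of all 10 fibroblast markers were higher (median 0.825, sums 137000 and 105000), and Bgn and Lum, matrix proteoglycans, passed with differences of 1.94 (adjusted p = 0.0290) and 1.49 (adjusted p = 0.0443). Averages of all 8 endothelial markers were higher (median 0.355, sums 21900 and 15600), and 0 passed after adjustment. Such sums are set by the brightest probe sets, so they say little of the lists as a whole. Dcn made up 86.7% of the fibroblast sum in MYTHO-KD and 93.6% in scramble, and Cdh5 43.6% and 47.4% of the endothelial sum. Of the macrophage sum, Mrc1 made up 19.8% in MYTHO-KD and 36.2% in scramble. Lyz2 was brighter than Mrc1 in MYTHO-KD (log2 signal 11.11 against 9.93) and dimmer in scramble (9.17 against 9.56). Dcn, Cdh5 and Mrc1 were named after their values were seen. STIM and ORAI genes are used by many cell types, macrophages and endothelium among them, whereas the triad genes belong mainly to striated muscle. The part of other cells in the averages of the entry genes was not tested.

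Of the 10 fibre markers 3 had higher and 5 lower averages, and the other 2, Acta1 and Myh4, were saturated at 19.93 in both groups. The median difference was -0.015 over all 10 and -0.04 without this pair. An unadjusted p under 0.05 was found for Mb, the oxygen carrier myoglobin, at 0.93 (limma adjusted p = 0.0754), Myh1, a fast myosin, at 0.59 (adjusted p = 0.230) and Ryr1 at -0.39. The 8 markers of immature or regenerating fibres had a median of 0.185, or 0.21 without Myh8, which was saturated in both groups. The Myh8 probe set could therefore show no difference, and whether it reads Myh8 alone was not tested. Of the 8, 3 differed 2-fold with an unadjusted p under 0.05: Mymk, the fusion protein myomaker, at 1.77 (limma adjusted p = 0.0749), Myh3, embryonic myosin, at 1.27 (adjusted p = 0.366), and Chrna1, an acetylcholine receptor subunit, at 1.07 (adjusted p = 0.141). Acta1, Myh4, Myh8 and Myh3 were named after their values were seen. The 6 lymphocyte markers were all lower on average (median -0.27), and smooth muscle, Schwann cell and adipocyte markers had medians of 0.045, -0.17 and -0.305; 0 of these 4 lists' genes had an unadjusted p under 0.05.

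**Figure D3:**
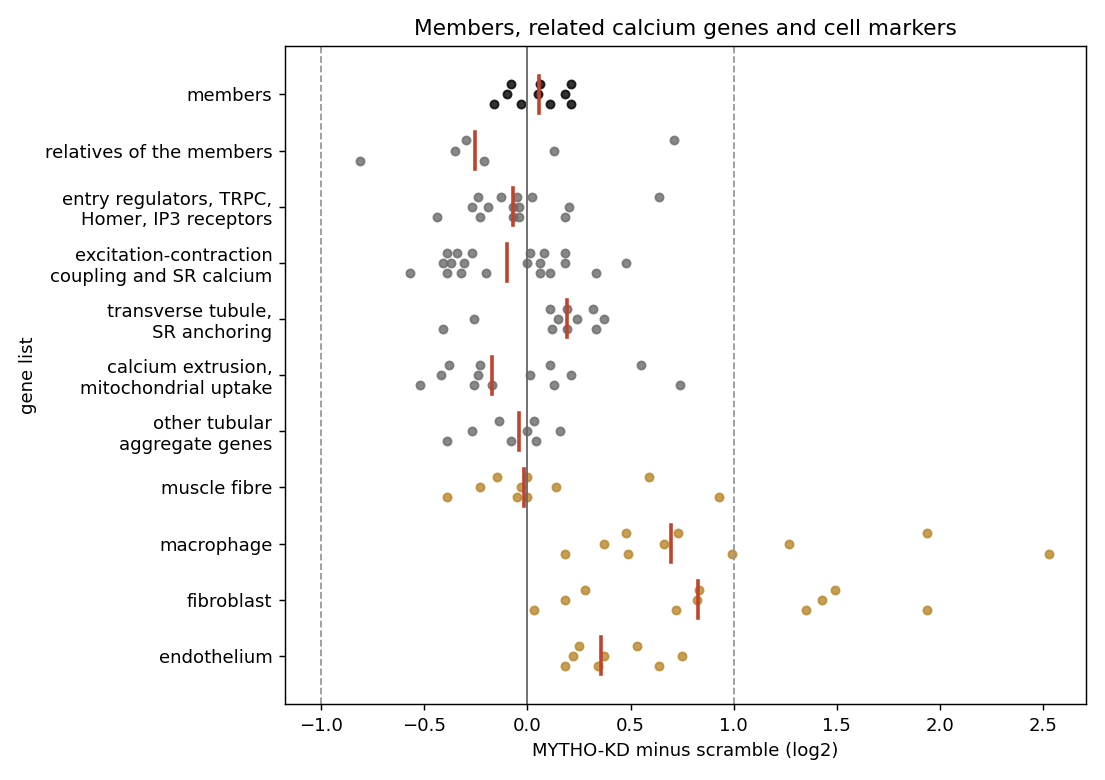
MYTHO-KD minus scramble on the log2 scale (horizontal axis) for single genes (points) by list, with the list median as a red bar, dashed lines at 2-fold and small vertical offsets only to separate points. The 10 members (black) span -0.16 to 0.21, related calcium genes (grey) -0.81 to 0.74, and macrophage and fibroblast markers (ochre) reach 2.53 and 1.94.

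The median spread between arrays was ordinary for the 10 genes. Their SDs ran from 0.06 to 0.39 in MYTHO-KD (median 0.215) and from 0.06 to 0.57 in scramble (median 0.235), beside a median of 0.27 over all probe sets in either group. The 5 entry genes had a median SD of 0.27 in MYTHO-KD and 0.43 in scramble, and the 5 triad genes 0.15 and 0.19. The 8 slow fibre markers, by contrast, had SDs of 1.39 to 3.67 in MYTHO-KD and 0.70 to 1.43 in scramble, and 0 of 8 had an unadjusted p under 0.05 (median difference -0.33). The muscles of a group thus differed much in slow fibre genes, while Jph1, Jph2, Jsrp1, Tmem38a and Sypl2 had SDs of at most 0.32 in either group.

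**Figure D4:**
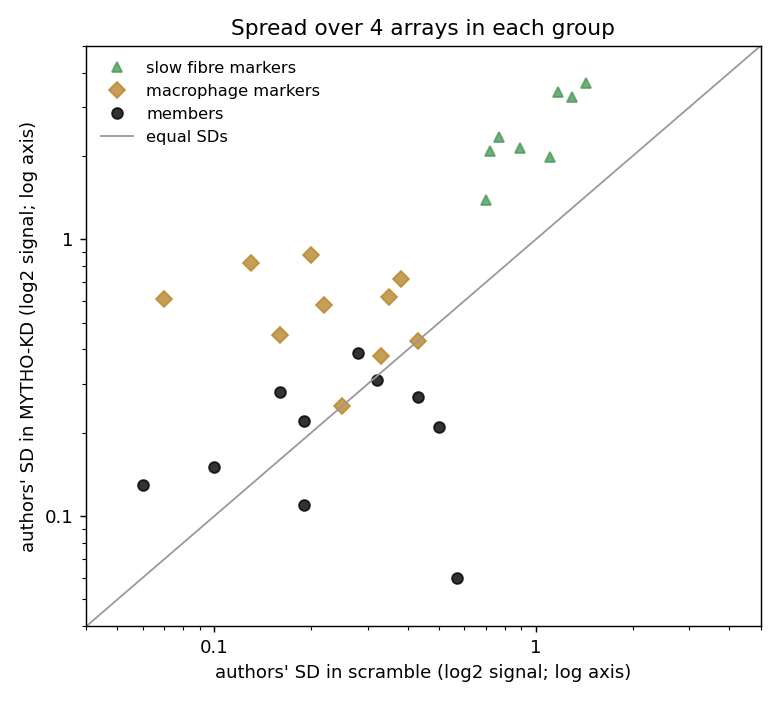
SD over 4 arrays in scramble (horizontal log axis) and in MYTHO-KD (vertical log axis), both of the log2 signal, for the 10 members (black circles), macrophage markers (ochre diamonds) and slow fibre markers (green triangles), with a line for equal SDs. The members lie at 0.06 to 0.57 and the slow fibre markers at 0.70 to 3.67, and Orai1 is the circle furthest below the line.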

How the data were processed

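RNA of 4 MYTHO-KD and 4 scramble GAS muscles was hybridised to Clariom S Mouse arrays. For normalization the paper names SST-RMA and the Transcriptome Analysis Console, whereas the sample records name RMA and Affymetrix Expression Console. The authors deposited a table of 28 columns with log2 averages per group, SDs and a flag for expression. It also holds their own fold change, p-value and false discovery rate, which were not used. The build was mm10 per the file headers. The kind of average is not given in the sources used here; with a robust average, p-values would be somewhat too low. Values of single arrays were absent, as foreseen in the plan, so the usual limma fit on them was not possible. Instead, limma 3.58.1 (R 4.3.3) was given the averages and SDs: the variance of a probe set was the mean of both group variances (6 residual degrees of freedom), squeezeVar shrank it towards a prior SD of 0.284 with 5.85 prior degrees of freedom, p-values were two-sided, and Benjamini-Hochberg adjustment ran over 22206 probe sets. Intervals are 95% from the same moderated t. Groups came from the sample labels; nothing in them says that arrays came from separate animals within a group, so p-values measure the spread between these samples. The fit took the groups as unpaired, although scramble went into the other leg. Whether pairing the legs would widen or narrow the intervals could not be tested. The number of arrays limits precision.

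The members and lists were chosen with earlier results of these data known. Named genes were all members, the target, the genes of each calcium list that passed a call plus the 2 with the lowest p, and, of each marker list, the 2 with the lowest p, of which those that bear on the members are printed. A gene with several probe sets was read from the one with the highest mean. No gene was ranked by likeness to the members, since 2 averages per gene do not allow it. Alternatives were no moderation, trend and robust fitting, unequal variances, a filter on dim probe sets, 1 probe set per symbol, and centring on all probe sets or on the fibre markers.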

Additional observations from a re-analysis of the deposited data

How the results depend on the processing

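The 10 genes were read under 7 alternatives. All 70 values kept their side of the unadjusted threshold, the lowest p was 0.24 unadjusted and 0.666 adjusted, and the median difference ran from 0.055 to 0.07. Intervals inside 2-fold numbered 10 in each alternative but unequal variances, which gave 9 because the Orai1 interval then rests on fewer degrees of freedom, and inside 1.5-fold 4 to 7 (Jph1 and Orai2 left it, Stim1 entered it); these interval counts were added after seeing the data. Of the related calcium genes, Homer2 passed the unadjusted threshold with trend and robust fitting, Ryr1 missed it when centred on all probe sets or on fibre markers (differences -0.38 and -0.375), and Micu3 missed it without moderation or with unequal variances. No paired analysis was possible because the table holds group averages only; for that reason leaving out single arrays was not run, nor was the mean over several probe sets, since each of the 10 genes has 1.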
